A study of Mus musculus with 5 samples.

Results

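The mitochondrially encoded genes are the genes carried by the mitochondrion's own circular DNA, taken here as every row of the deposited expression table placed on chromosome MT. They numbered 36 of the 21667 genes listed, made up of 13 protein-coding genes, 2 ribosomal RNA (rRNA) genes and 21 transfer RNA (tRNA) genes. Each had 1 transcript row, so no summing over transcripts was needed, and the coordinates of 36 of 36 were those of GENCODE M21 on GRCm38. That annotation holds 37 mitochondrial genes, and mt-Tf was not analysed here.

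The RNA came from total epidermis of the back, taken from C57BL/6 wildtype male mice at postnatal day 49, in a study of signalling by G-protein-coupled receptors, cAMP and Creb when hair follicle stem cells become active. All groups shared this strain, sex and age, and the back skin was shaved. In 2 libraries the skin had received topical forskolin, an activator of adenylyl cyclase, at 10 µM, and in 2 others cAMP at 1.325 mM, each dissolved in DMSO and carried in a PLO lotion on 3 occasions within 5 days. The single control library came from untreated skin. Whether that skin was given the lotion is not stated, nor is it stated that libraries with the same treatment are different mice, so the p-values rest on library-to-library spread that could be technical. The single control gives no spread of its own.

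The control library stood apart from the 4 treated ones before any result on these genes: 9791 of its genes reached 1 CPM (read counts per library scaled to a common total), against 12867 to 13551 genes in the treated libraries. The second forskolin library stood apart in its nuclear ribosomal RNA, where Rn18s-rs5 held 55450.5 CPM, against 239.7 to 1645 CPM in the other 4 libraries. Estimated depths ran from 34178102 to 51672376 reads, and between 43.1% and 69.3% of the listed values fell on the 36 mitochondrial genes. At these depths 3 reads corresponded to between 0.0581 and 0.0878 CPM, which is taken below as the floor. The keratinocyte markers were well above that floor in every library (11 of 11 genes at 1 CPM or more).

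Mitochondrial DNA encodes core subunits of the respiratory chain and of ATP synthase, together with the rRNAs and tRNAs that translate them inside the organelle. Its heavy and light strands are each transcribed as long precursors by the nuclear-encoded polymerase Polrmt with the factors Tfam and Tfb2m. The tRNA genes lie between most of the other genes, and cutting the tRNAs out of the precursor frees the mRNAs and rRNAs on either side. All other parts of this machinery are made from nuclear genes and imported. In epidermis, as in other tissues, the abundance of mitochondrial RNA differs between cell types and with the state of the cells.

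The nuclear genome also carries old copies of mitochondrial DNA, and 7 of these, side by side on the minus strand of chromosome 1 (chr1:24611535-24616197, GRCm38), bore directly on the measurements. A search of the listed pseudogenes against the mitochondrial genes found 14 that matched with at least 90% identity over at least 80% of their length, and these 7 were the ones with a mean of at least 100 CPM. In 5 of the 7 every aligned base was identical to the mitochondrial gene: Gm10925 to mt-Atp6 over 678 bases, Gm28661 to mt-Co2 over 681 bases, Gm28437 to mt-Co3 over 783 bases, Gm10222 to mt-Nd4l over 294 bases and Gm28439 to mt-Nd4 over 876 bases. A read from such a stretch cannot be assigned to either locus by its sequence. The other 2 differed from their mitochondrial gene at 1 end only, and the windows below show those differences in capitals, because they are the only letters by which a read could be told apart. Gm29216 carried T1056A, C1057T, A1059G, A1060G, C1062A and A1066T in 492 bases aligned with mt-Co1, and Gm28438 carried T3C in 345 bases aligned with mt-Nd3, each written as the mitochondrial base, its position from 1 at the start of the mitochondrial gene, and the base of the copy.
mt-Co1 (MT:6381-6423, plus strand): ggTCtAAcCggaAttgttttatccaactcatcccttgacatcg
Gm29216 (chr1:24616155-24616197, minus strand): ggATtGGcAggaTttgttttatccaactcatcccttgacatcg
mt-Nd3 (MT:9459-9491, plus strand): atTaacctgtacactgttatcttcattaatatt
Gm28438 (chr1:24613087-24613119, minus strand): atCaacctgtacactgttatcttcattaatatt

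The deposited values of the identical copies followed those of the mitochondrial genes almost exactly. mt-Co3 had 20336 and 13575 CPM in the forskolin libraries, 17476 and 19510 CPM in the cAMP libraries and 40228 CPM in the control, and Gm28437 differed from it by at most 0.0021% in any library. Gm28661 differed from mt-Co2 by at most 0.0159% and Gm10925 from mt-Atp6 by at most 0.103%. Such equality in 5 of 5 libraries means that the deposited value of each of these 3 genes is paired with an equal value at its copy, and neither value can be read as that locus alone. Gm10222 lay within 5.83% of mt-Nd4l in every library.

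Where the copy was not identical or covered only part of the gene, the values parted. Gm28438 had 3007 and 1814 CPM in the forskolin libraries and 2776 and 3410 CPM in the cAMP libraries, which is 41.9% to 47.8% above mt-Nd3 in the same library, whereas in the control it had 5353 CPM and lay 0.247% above mt-Nd3. Gm29216, which matches only the last part of mt-Co1, had 39716 and 23250 CPM in the forskolin libraries, 51269 and 25975 CPM in the cAMP libraries and 50719 CPM in the control, a difference of -57.6% to -85.4% from mt-Co1. Gm28439, identical to the first 63.6% of mt-Nd4, had 2869 and 0.431 CPM in the forskolin libraries, 0.0856 and 7590 CPM in the cAMP libraries and 5862 CPM in the control, so that each treatment had 1 library near the floor and 1 far above it. Values of mt-Atp6, mt-Co2, mt-Co3, mt-Nd3 and mt-Nd4l, and in part of mt-Co1 and mt-Nd4, are therefore uncertain between the mitochondrial gene and its copy, and the main results on them are given below also with the copy summed into the gene. If a read with several matches was counted at both loci, such a sum is too high. Whether it was is not given in the sources used here.

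**Figure D1:**
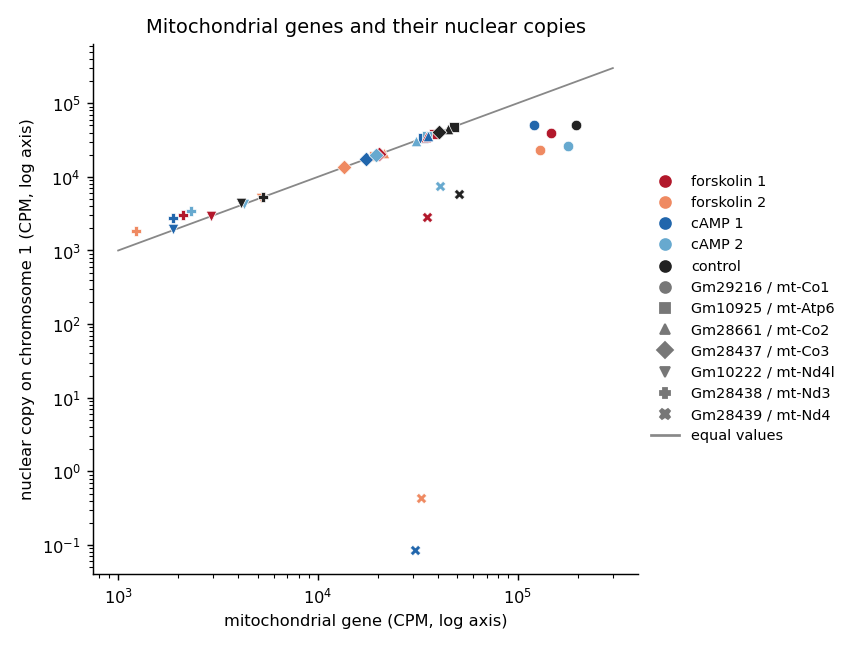
Deposited CPM of 7 nuclear copies on chromosome 1 (vertical, log axis) against the CPM of the mitochondrial gene each matches (horizontal, log axis), with 1 point per library, colours for libraries and symbols for gene pairs. Points of mt-Atp6, mt-Co2, mt-Co3 and mt-Nd4l lie on or within 5.83% of the line of equal values; those of mt-Nd3 lie above it in the treated libraries, and Gm28439 falls to 0.431 CPM in a forskolin library and 0.0856 CPM in a cAMP library.

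The mitochondrial genes made up a smaller share of every treated library than of the control. Of the listed values they took 50.7% and 45.6% in the forskolin libraries, 43.1% and 58.0% in the cAMP libraries and 69.3% in the control. The 4 treated libraries averaged 49.4% ± 6.58 (SD, n = 4), a difference of -19.9 percentage points from the control, and none of them reached the control's value. An exact two-sided permutation test gave p = 0.2, the smallest value that 4 libraries against 1 can give. The forskolin libraries averaged 48.2% ± 3.62 and the cAMP libraries 50.6% ± 10.5 (SD, n = 2 each), and the 2 treatments overlapped (exact permutation p = 1.0, where 0.33 is the smallest possible). Without the second forskolin library the forskolin value lay 0.131 percentage points above the cAMP mean, and without the second cAMP library 5.02 points above the remaining cAMP value, so the direction of that difference rested on single libraries.

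With the 7 copies added, the share came to 66.1% and 56.0% in the forskolin libraries, 58.2% and 71.7% in the cAMP libraries and 91.1% in the control. The difference from the control widened to -28.1 percentage points, with the treated libraries at 63.0% ± 7.23 (SD, n = 4). Nuclear genes other than pseudogenes and rRNA held less in the control than in any treated library: 31.4% and 34.8% in the forskolin libraries, 38.0% and 25.9% in the cAMP libraries and 7.90% in the control. Other pseudogenes and nuclear rRNA held the remainder, which was largest in the second forskolin library, with 6.89% nuclear rRNA. Since CPM is relative to the library, and between 56.0% and 91.1% of the listed values belonged to the mitochondrial genes and their copies, a change in the amount of mitochondrial RNA cannot be told apart from a change in the amount of nuclear RNA. In whole tissue, likewise, fewer cells of a type and less RNA per cell cannot be told apart.

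**Figure D2:**
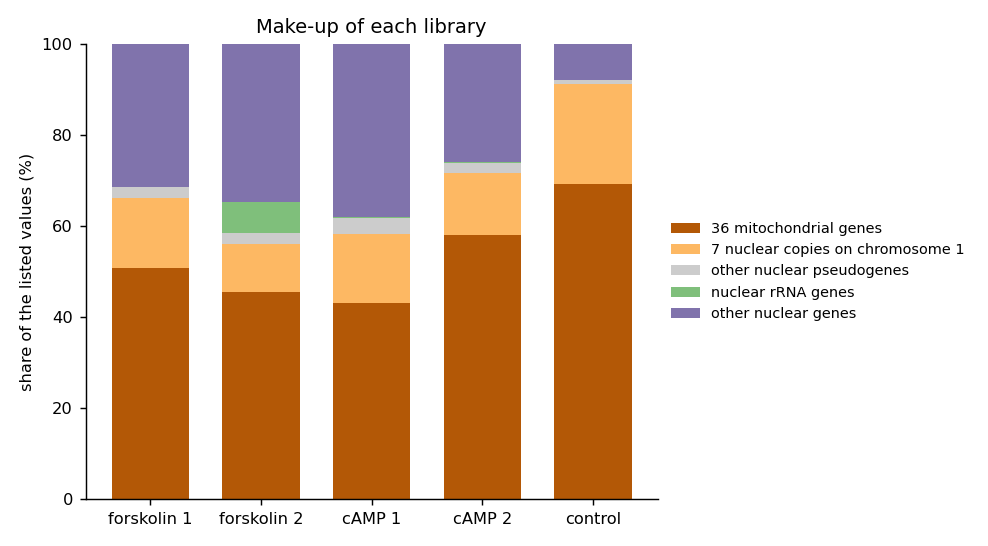
Share of the listed values (%) held by the mitochondrial genes, their 7 nuclear copies, other pseudogenes, nuclear rRNA genes and all other nuclear genes, as stacked bars for each library. Mitochondrial genes hold 43.1% to 58.0% in the treated libraries and 69.3% in the control, and other nuclear genes 25.9% to 38.0% in the treated libraries and 7.90% in the control.

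Markers of other cell types moved with these groups. The summed keratinocyte markers (11 of 11 listed) were 7513 to 9260 CPM with forskolin, 4202 to 9078 CPM with cAMP and 2769 CPM in the control, but as a share of the nuclear values they were 2.68% to 3.19% with forskolin, 1.74% to 2.52% with cAMP and 3.84% in the control. Single markers did not all share this order. Krt14 had 1057 to 2456 CPM in the treated libraries and 271 CPM in the control, and Krt10 had 575 to 1302 CPM and 693 CPM. As a share of the nuclear values, Krt14 was lowest in the control, Krt10 highest, and Krt5 within the treated range. The 12 skeletal muscle markers, from a tissue rich in mitochondria, summed to 137 to 143 CPM with forskolin, 120 to 198 CPM with cAMP and 82.9 CPM in the control, and none of the 12 was under the floor in any library. As a share of the nuclear values the sum of the muscle markers, too, was highest in the control, at 0.0489% to 0.0494% with forskolin, 0.0332% to 0.0819% with cAMP and 0.115% in the control. The 8 dermal fibroblast markers summed to 23.0 and 223 CPM with forskolin, 128 and 304 CPM with cAMP and 185 CPM in the control, with Fbn1 and Pdgfra under the floor in some libraries. As a share of the nuclear values they were 0.00792% and 0.0796% with forskolin, 0.0357% and 0.126% with cAMP and 0.256% in the control, so the control was again the highest. The sebocyte markers moved the other way, with 292 and 516 CPM with forskolin, 1338 and 1107 CPM with cAMP and 48.3 CPM in the control, which is 0.101% and 0.184%, 0.372% and 0.459%, and 0.0671% of the nuclear values. Of these sebocyte markers, Mc5r was under the floor in the control, and Scd3 did not follow the sum. Scd3 had 5.39 and 18.4 CPM with forskolin, 26.9 and 27.2 CPM with cAMP and 17.5 CPM in the control. As a share of the nuclear values Scd3 was highest in the control. Markers of melanocytes, T cells and Langerhans cells were also lowest in CPM in the control, at 21.3, 105 and 88.5 CPM, against at least 77.3, 339 and 240.2 CPM in the treated libraries. As shares of the nuclear values, the control lay within the range of the treated libraries for all 3. The nuclear-retained RNA Malat1 was at 233 and 856 CPM with forskolin, 120 and 117 CPM with cAMP and 30.5 CPM in the control. As a share of the nuclear values, the control's Malat1 lay between those of the cAMP libraries and below both forskolin libraries. The part of cell make-up and of RNA quality in the mitochondrial share was not tested.

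Almost all of the mitochondrial signal was mRNA. The 13 protein-coding genes held 97.5% to 99.0% of the mitochondrial total, the 2 rRNAs 0.909% to 2.40% and the 21 tRNAs 0.0442% to 0.199%. Grouped by respiratory complex, complex IV held the largest share in all 5 libraries: 43.3% and 44.7% with forskolin, 42.6% and 42.4% with cAMP and 44.5% in the control. Complex I held 26.1% and 30.8% with forskolin, 25.2% and 27.3% with cAMP and 28.0% in the control. Complex III, which has mt-Cytb as its only mitochondrial subunit, held 16.5% and 15.1% with forskolin, 21.0% and 19.5% with cAMP and 14.2% in the control. Complex V, the ATP synthase, held 13.0% and 6.96% with forskolin, 9.92% and 9.81% with cAMP and 12.1% in the control, the second forskolin library being the lowest. With the copies summed in, complex IV stayed the largest, at 45.8% to 50.5%. Complex III then held 12.6% and 12.3% with forskolin, 15.6% and 15.8% with cAMP and 10.8% in the control. Complex V held 16.2% and 9.88%, 13.4% and 13.2%, and 14.9%, so it was above complex III in the first forskolin library and the control. As CPM, 11 of 13 protein-coding genes were lower in every treated library than in the control, where 6.27% of all listed genes were. Both forskolin libraries were under the control for 12 of 13 (7.94% of all listed genes) and both cAMP libraries for 11 of 13 (9.18%). The other 2 (mt-Cytb and mt-Nd4l) lay on both sides of the control. A mitochondrial total that is itself lower carries all of its large members with it, so the members are described next also as shares of that total. On that scale they were mixed: both forskolin libraries were above the control for 3 of 13 mRNAs and below it for 3 (88.3% and 5.73% of all listed genes), and both cAMP libraries for 1 and 5 (85.2% and 7.73%).

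Per length, mt-Co1, the catalytic subunit of cytochrome c oxidase (complex IV), was the most abundant mitochondrial gene, with 99919 ± 20742 CPM per kb over the 5 libraries (mean ± SD). mt-Atp8 followed with 80596 ± 47204 and mt-Cytb with 72339 ± 16066 CPM per kb, and the spread of mt-Atp8 reached both of the others. Next came mt-Atp6, mt-Co2, mt-Nd1, mt-Co3, mt-Nd4 and mt-Nd2, from 51113 down to 21943 CPM per kb. The lowest mRNAs were mt-Nd6 with 16763 ± 4251, mt-Nd5 with 12833 ± 3396, mt-Nd4l with 12386 ± 4316 and mt-Nd3 with 7405 ± 4592 CPM per kb, and except for the last step, neighbours among these 4 lay within 1 SD of each other. With the copies summed in, mt-Co1 stayed first at 124635 CPM per kb, but mt-Atp6 and mt-Co2 moved to the second and the third place with 102235 and 98151 CPM per kb. mt-Nd4l and mt-Nd3 also moved up, to 24958 and 16807 CPM per kb, which left mt-Nd5 as the lowest mRNA. The order below mt-Co1 therefore depended on whether the copies were summed in.

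Complex I takes electrons from NADH, and its 7 mitochondrial subunits form its proton-pumping arm in the membrane. mt-Nd1 had 30080 and 26998 CPM with forskolin, 29442 and 34462 CPM with cAMP and 46096 CPM in the control. As a share of the mitochondrial total it was the most even member, at 6.41% and 7.35% with forskolin, 7.21% and 6.38% with cAMP and 7.30% in the control, a 1.15-fold range. mt-Nd2 had 20686 and 15064 CPM with forskolin, 18446 and 29372 CPM with cAMP and 30318 CPM in the control. Its shares, 4.41% and 4.10% with forskolin, 4.52% and 5.44% with cAMP and 4.80% in the control, put both forskolin libraries below both cAMP libraries, as did 7.68% of all listed genes. mt-Nd4 had 35186 and 32688 CPM with forskolin, 30551 and 40744 CPM with cAMP and 51078 CPM in the control, with shares between 7.48% and 8.90%.

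mt-Nd5 had 22408 and 26110 CPM with forskolin, 13071 and 27005 CPM with cAMP and 28441 CPM in the control. Its share was highest in the second forskolin library (7.11%) and lowest in the first cAMP library (3.20%), with 4.50% in the control. mt-Nd6, the only mRNA of the light strand, had 8940 and 5728 CPM with forskolin, 7668 and 9480 CPM with cAMP and 11684 CPM in the control. Its share kept within 1.22-fold, from 1.56% to 1.91%, although it is transcribed from the other strand than the rest. It overlaps mt-Nd5 by 14 bases on the opposite strand, and whether counting used the strand is not given in the sources used here.

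mt-Nd3 had the lowest fitted change of the mRNAs with forskolin, as tested further on. It had 2119 and 1227 CPM with forskolin, 1886 and 2312 CPM with cAMP and 5340 CPM in the control, so that every treated library was under the control. Its share of the mitochondrial total was 0.452% and 0.334% with forskolin, 0.462% and 0.428% with cAMP and 0.846% in the control. The treated libraries averaged 0.419% ± 0.0581 (SD, n = 4), and the gap to the control was wider than their spread. With Gm28438 summed in, the shares were 0.839% and 0.674% with forskolin, 0.846% and 0.858% with cAMP and 1.29% in the control. All 4 treated libraries were again under the control, by more than their spread (0.804% ± 0.0871, SD, n = 4).

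mt-Nd4l and mt-Nd4 are read from a shared mRNA in which the end of the first overlaps the start of the second, shown here in capitals within GRCm38 MT:10127-10213 because 7 bases count for both genes.
mt-Nd4l and mt-Nd4: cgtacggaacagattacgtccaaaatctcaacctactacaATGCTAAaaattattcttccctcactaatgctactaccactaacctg
mt-Nd4l had 2932 and 5176 CPM with forskolin, 1884 and 4260 CPM with cAMP and 4142 CPM in the control. Although the genes share their transcript, the ratio of mt-Nd4l to mt-Nd4 was 0.0833 and 0.158 with forskolin, 0.0617 and 0.105 with cAMP and 0.0811 in the control, and it differed more between libraries of the same treatment than between treatments. With both copies summed in, it was 0.153 and 0.316 with forskolin, 0.126 and 0.177 with cAMP and 0.150 in the control. The shares with copies were 0.955% and 2.29% with forskolin, 0.697% and 1.28% with cAMP and 1.03% in the control for mt-Nd4l, and between 5.54% and 7.24% in all libraries for mt-Nd4.

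Cytochrome c oxidase passes electrons to oxygen. mt-Co1 had 147872 and 129025 CPM with forskolin, 120836 and 178131 CPM with cAMP and 196012 CPM in the control, and a share of 31.5% and 35.1% with forskolin, 29.6% and 33.0% with cAMP and 31.0% in the control. This share kept within 1.19-fold, and within 1.14-fold with Gm29216 summed in. With the copies summed in, it was above the control in every treated library, at 30.7% and 33.7% with forskolin, 31.2% and 30.6% with cAMP and 29.7% in the control. mt-Co2, which takes electrons from cytochrome c, had 34904 and 21383 CPM with forskolin, 35549 and 31091 CPM with cAMP and 44902 CPM in the control, with shares between 5.76% and 8.70% that lay on both sides of the control's 7.11%, as they did with Gm28661 summed in (9.32% to 12.9%, against 10.8%). mt-Co3, a structural core subunit, held 4.33% and 3.70% of the total with forskolin, 4.28% and 3.61% with cAMP and 6.37% in the control. All 4 treated values lay under the control, averaging 3.98% ± 0.378 (SD, n = 4), and they also did so with Gm28437 summed in, at 6.21% ± 0.358 against 9.69%. mt-Co3 and mt-Nd3 were the 2 of 13 mRNAs whose share was lower in every treated library than in the control, which held for 4.66% of all listed genes. They are neighbours on the genome, with the tRNA gene mt-Tg between them.

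With the copies summed in, 2 of 13 mRNAs had shares above the control in every treated library, mt-Co1 and mt-Cytb. Without them, mt-Cytb, the haem-bearing core subunit of complex III, was the only such mRNA, where 83.6% of all listed genes lay above the control. It had 77319 and 55407 CPM with forskolin, 85823 and 105448 CPM with cAMP and 89780 CPM in the control. Its share was 16.5% and 15.1% with forskolin, 21.0% and 19.5% with cAMP and 14.2% in the control. Both forskolin libraries were under both cAMP libraries, on both scales, as were 14.1% of all listed genes as CPM and 7.68% as shares. It has no copy among the 7 on chromosome 1, and the best-matching listed pseudogene, Gm11410, stayed at or below 0.895 CPM.

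mt-Atp8 and mt-Atp6 encode subunits of the membrane part of ATP synthase, where mt-Atp6 forms part of the proton path. They are also read from a shared mRNA and overlap by 43 bases (MT:7927-7969), in capitals within MT:7887-8009.
mt-Atp8 and mt-Atp6: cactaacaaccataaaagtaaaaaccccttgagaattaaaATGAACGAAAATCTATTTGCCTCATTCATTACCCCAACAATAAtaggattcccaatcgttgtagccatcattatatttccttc
mt-Atp8 had 22511 and 6547 CPM with forskolin, 7034 and 17577 CPM with cAMP and 28540 CPM in the control. mt-Atp6 had 38295 and 19020 CPM with forskolin, 33505 and 35396 CPM with cAMP and 47824 CPM in the control. The ratio of mt-Atp8 to mt-Atp6 was 0.588 and 0.344 with forskolin, 0.210 and 0.497 with cAMP and 0.597 in the control. With Gm10925 summed into mt-Atp6 it was 0.294 and 0.172 with forskolin, 0.105 and 0.248 with cAMP and 0.298 in the control. On either count, each treatment had 1 library nearer to the control and 1 further below it, namely the second forskolin and the first cAMP library, which were also the low libraries of Gm28439.

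The mitochondrial rRNAs had lower means per length than any mRNA, with 2768 ± 679 CPM per kb for mt-Rnr1 and 2152 ± 993 for mt-Rnr2 over the 5 libraries (mean ± SD), although mt-Rnr2 was above mt-Nd3 in the second forskolin library (3900 against 3527 CPM per kb). mt-Rnr1, the rRNA of the small ribosomal subunit, had 2266 and 2654 CPM with forskolin, 2251 and 2284 CPM with cAMP and 3764 CPM in the control, all treated values lying below it. mt-Rnr2, the rRNA of the large subunit, had 2937 and 6170 CPM with forskolin, 2296 and 2624 CPM with cAMP and 2996 CPM in the control. The second forskolin library was the high one, and it was also the library with 55450.5 CPM of nuclear Rn18s-rs5. The ratio of mt-Rnr2 to mt-Rnr1 was 1.30 and 2.32 with forskolin, 1.02 and 1.15 with cAMP and 0.796 in the control. Libraries had been made with a stranded mRNA kit, and the part of mRNA selection in the rRNA values was not tested.

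**Figure D3:**
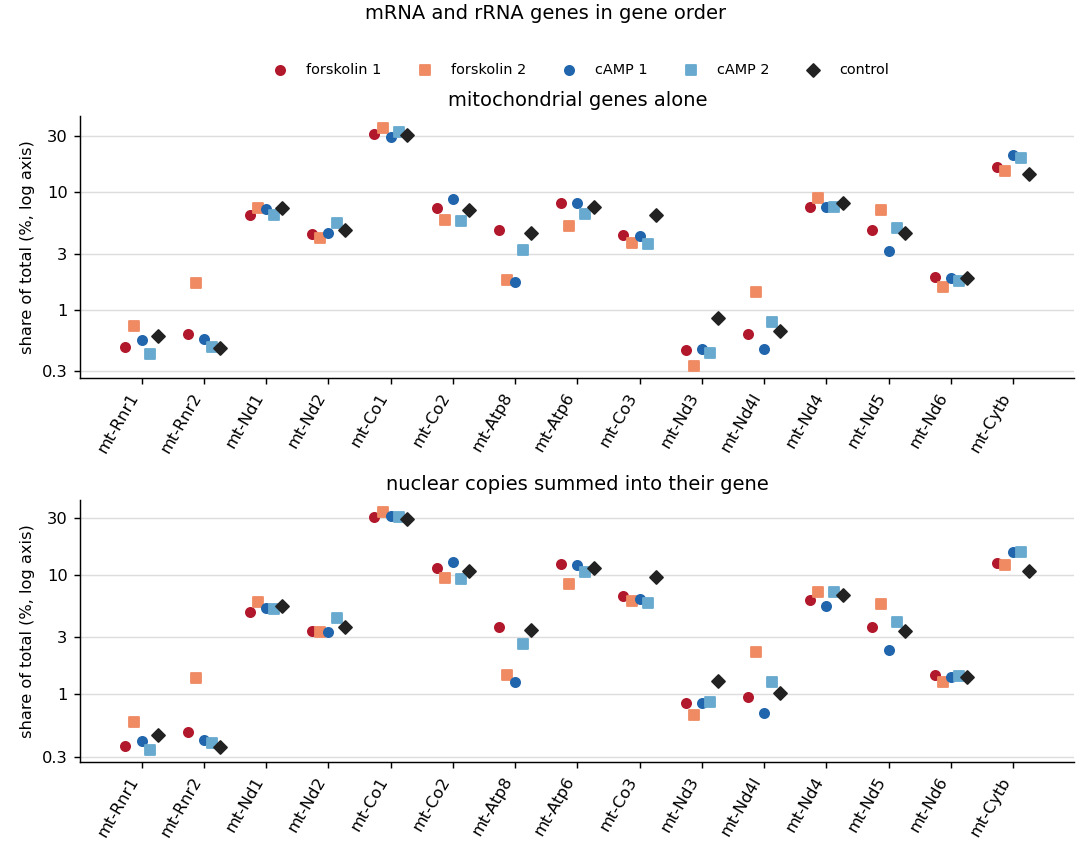
Share of the mitochondrial total (%, log axis) of the 15 mRNA and rRNA genes, in gene order, with 1 point per library; the lower panel sums the nuclear copies into their gene and into the total. In the upper panel mt-Nd1 keeps within 1.15-fold and mt-Co1 within 1.19-fold over the 5 libraries. In both panels mt-Co3 and mt-Nd3 lie below the control in all 4 treated libraries, and mt-Cytb lies above it. In the lower panel mt-Co1 also lies above the control in all 4.

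The tRNA genes differed in level by strand. The 8 listed tRNA genes of the light strand had a median of 16.7 and 7.83 CPM with forskolin, 7.49 and 5.72 CPM with cAMP and 4.48 CPM in the control. The 13 listed of the heavy strand, whose precursor carries 12 of the 13 mRNAs, had a median of 1.08 and 0.440 CPM with forskolin, 0.697 and 0.742 CPM with cAMP and 0.0416 CPM in the control, the control's median being under the floor of 0.0607 CPM. All 8 light-strand genes were above 1 read in every library, whereas in the control 5 of the 13 heavy-strand genes had under 1 read. The light-strand mRNA mt-Nd6, by contrast, was among the lower mRNAs. Light-strand tRNA genes face the abundant heavy-strand precursor, and without knowledge of strand in the counting, reads from its complement cannot be told apart from reads of the tRNA. On either strand, reads at a tRNA gene can come from a precursor as well as from the cut tRNA. The values below are therefore values of tRNA genes, not levels of finished tRNA. The part of RNA purification and of mRNA selection in them was not tested.

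The highest were mt-Tp (tRNA for proline) and mt-Ts1 (tRNA for serine). mt-Tp had 258 and 186 CPM with forskolin, 327 and 201 CPM with cAMP and 155 CPM in the control, and mt-Ts1 had 124 and 106 CPM with forskolin, 417 and 90.3 CPM with cAMP and 83.1 CPM in the control. Both were higher in every treated library than in the control, and the first cAMP library was the highest for both. Neither passed limma's test as deposited, and the direction turned with the scaling: with median-of-ratios size factors mt-Tp was called lower with forskolin and with cAMP (-1.60 ± 0.40 and -1.37 ± 0.40, limma adjusted p = 0.00988 and 0.0208), and mt-Ts1 was called lower with forskolin (-1.63 ± 0.51, limma adjusted p = 0.0291), with -0.87 ± 0.51 for mt-Ts1 with cAMP (adjusted p = 0.222). Their genes are shown because they lie at the ends of abundant mRNAs of the opposite strand: mt-Ts1 overlaps the last 3 bases of mt-Co1 (capitals), and mt-Tp lies next to mt-Tt downstream of mt-Cytb.
mt-Ts1 (MT:6870-6938, minus strand): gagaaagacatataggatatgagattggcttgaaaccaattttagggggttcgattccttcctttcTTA
mt-Tp (MT:15356-15422, minus strand): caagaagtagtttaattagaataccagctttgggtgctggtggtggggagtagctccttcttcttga

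Over all 21 tRNA genes, 13 were higher in CPM in every treated library than in the control, where 72.9% of all listed genes were, and 1 was lower (mt-Tg). With forskolin, 15 of 21 were above the control in both libraries (83.8% of all listed genes), and with cAMP 14 of 21 (76.1% of all listed genes). The tRNA genes thus went the way of most nuclear genes, at no greater frequency, and not the way of the mRNAs beside them. As shares of the mitochondrial total, 15 of 21 were above the control in every treated library, against 83.6% of all listed genes. Of these, 4 (mt-Tv, mt-Ti, mt-Tk and mt-Tl2) were under the floor of 3 reads in at least 1 treated library, as were 2 (mt-Ti and mt-Tl2) of the 13 counted by CPM, so for these the order of the libraries rests on under 3 reads in some of them.

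**Figure D4:**
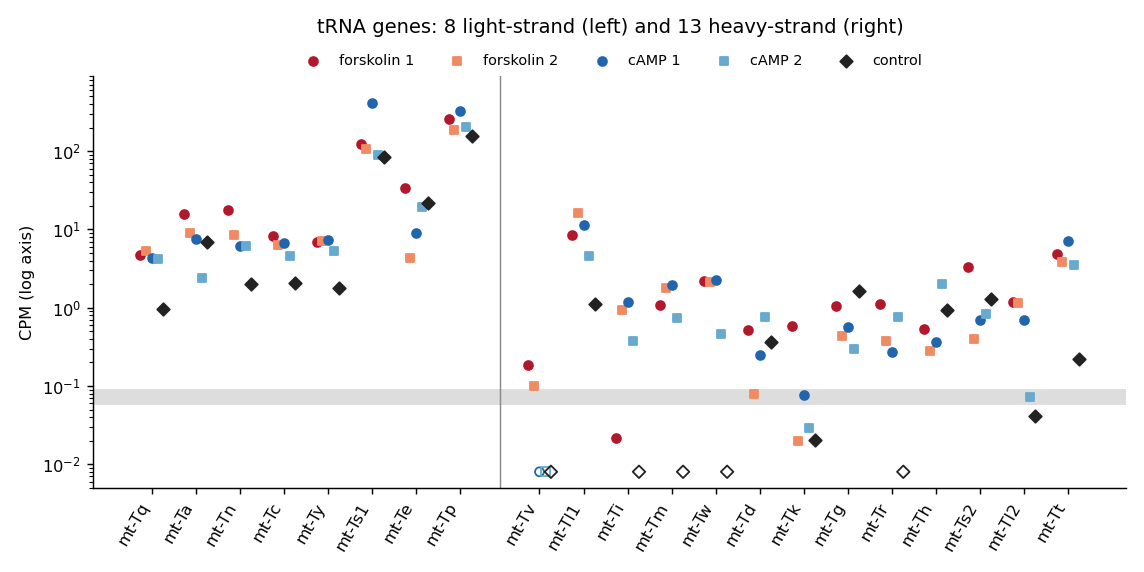
CPM (log axis) of 21 mitochondrial tRNA genes, with 8 of the light strand on the left and 13 of the heavy strand on the right, 1 point per library. The grey band spans the floor of 3 reads (0.0581 to 0.0878 CPM), and open symbols at the foot stand for values under 1 read, 5 of them in the control.

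The test across all genes was run with limma on log2(CPM + 1), with all 5 libraries in 1 fit and Benjamini-Hochberg adjustment over the 13764 genes that had at least 1 CPM in at least 2 libraries. It held 30 of the 36 mitochondrial genes: 13 mRNAs, 2 rRNAs and 15 tRNAs. Values of 6 tRNA genes, which did not pass that filter, lay between the offset that stands for 0 and 2.01 CPM. Adding 1 before taking logs makes the changes given for low genes, such as most tRNAs, too small. The spread behind each standard error was taken mostly from a trend over all genes tested (360.2 prior against 2 residual degrees of freedom). With every library scaled to the same mitochondrial total, it was taken from that trend alone. The standard errors are therefore not each gene's own spread between libraries.

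Forskolin against control, 8 of 30 mitochondrial genes passed the test, where 66.7% of all genes tested did. 7 were higher with forskolin, all of them tRNAs (66.3% of all genes tested were called higher), and 1 was lower, mt-Nd3 (0.341% of all genes tested). The median change was 1.69 on the log2 scale over all genes tested, -0.71 over the 13 mRNAs and 1.26 over the 15 tRNAs, or 1.41 with the 2 tRNAs that had no read in the control set at their lower bound. mt-Nd3 fell by 1.73 ± 0.75 on the log2 scale (SE, limma, adjusted p = 0.0339). That call was lost with Gm28438 summed into the gene (-1.44 ± 0.82, limma adjusted p = 0.107), without the first forskolin library (adjusted p = 0.0594) and without the second (adjusted p = 0.222). The other 12 mRNAs ranged from -1.28 ± 0.97 (mt-Co3) to -0.09 ± 0.78 (mt-Nd4l), with no call and with standard errors as large as most of the differences. Of the 8 calls, 2 (mt-Tl1 and mt-Tt) were kept without the first forskolin library, where mt-Te was called lower in addition, and 3 (mt-Tl1, mt-Tn and mt-Tt) without the second. Calls over all genes tested were also fewer without either forskolin library. With no filter 3 of the 8 were kept, where 6237 of all 21667 genes were called. A filter of 10 CPM left 19 mitochondrial genes in the test, 4 of them tRNAs, and called 6308 of 7321 genes. Of the 8, mt-Nd3 and mt-Tl1 passed that filter and both were kept, and the others were not tested there.

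Of the 7 tRNA genes called higher, mt-Tl1 (tRNA for leucine) had the largest fitted change. It had 8.45 and 16.1 CPM with forskolin and 1.12 CPM in the control, a log2 change of 2.58 ± 0.59 (SE, limma adjusted p = 0.000103). mt-Tn (asparagine) had 17.7 and 8.45 CPM with forskolin and 1.98 CPM in the control (2.16 ± 0.59, limma adjusted p = 0.00097). mt-Tt (threonine) had 4.80 and 3.85 CPM with forskolin and 0.223 CPM in the control (2.12 ± 0.62, limma adjusted p = 0.00202). Both forskolin libraries were above the control for each of these 3. mt-Tq (glutamine), mt-Ty (tyrosine) and mt-Tc (cysteine) rose by 1.61, 1.52 and 1.41 on the log2 scale, each with a standard error of about 0.6 (limma adjusted p = 0.0164, 0.0199 and 0.0305). mt-Tw (tryptophan) had 2.22 and 2.11 CPM with forskolin and no read in the control, a fitted log2 change of 1.66 ± 0.68 (limma adjusted p = 0.0255). Against the floor of 3 reads in the control library, mt-Tw was at least 35.7-fold higher with forskolin, a bound that was not itself tested. Of these 7, mt-Tl1, mt-Tt and mt-Tw are heavy-strand genes and the other 4 light-strand genes. The genes called in both treatments are printed for reference.
mt-Tl1 (MT:2676-2750, plus strand): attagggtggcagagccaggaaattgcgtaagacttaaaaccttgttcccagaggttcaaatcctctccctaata
mt-Tt (MT:15289-15355, plus strand): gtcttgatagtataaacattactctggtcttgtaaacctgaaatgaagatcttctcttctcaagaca
mt-Tq (MT:3772-3842, minus strand): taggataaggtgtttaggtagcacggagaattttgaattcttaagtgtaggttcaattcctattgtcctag
mt-Ty (MT:5260-5326, minus strand): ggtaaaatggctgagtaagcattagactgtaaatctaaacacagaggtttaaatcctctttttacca

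The comparison of cAMP with the same control, which it shares with forskolin, gave 4 calls among the 30 genes, where 65.6% of all genes tested were called. All 4 were tRNAs that were higher with cAMP (65.1% of all genes tested were called higher), and none was lower (0.436%). mt-Tt had 7.14 and 3.53 CPM with cAMP and 0.223 CPM in the control (2.31 ± 0.62, limma adjusted p = 0.000793), and mt-Tl1 had 11.3 and 4.57 CPM with cAMP and 1.12 CPM in the control (1.96 ± 0.59, limma adjusted p = 0.00269). mt-Tq rose by 1.42 ± 0.61 and mt-Ty by 1.39 ± 0.60 (limma adjusted p = 0.0345 and 0.0336). mt-Nd3 changed by -1.35 ± 0.75 and missed the threshold (limma adjusted p = 0.0961). The median over the 13 mRNAs was -0.53 and over the 15 tRNAs 1.12, or 1.22 with 2 genes at their bound, against 1.66 over all genes tested. Without either forskolin library, which then leaves less to estimate the spread from, fewer genes were called with cAMP, both among the members and over all genes tested. More were called in both without the second cAMP library.

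Between the treatments, 0 of 30 mitochondrial genes passed limma's test with forskolin against cAMP, where 0.378% of all genes tested did. At an unadjusted p under 0.05, which 6.81% of all genes tested had, there was 1, mt-Ta (tRNA for alanine), with 15.7 and 8.97 CPM with forskolin and 7.57 and 2.43 CPM with cAMP (log2 difference 1.25 ± 0.48, limma adjusted p = 0.419). Differences of the 13 mRNAs ran from -0.54 ± 0.95 (mt-Cytb) to 0.46 ± 0.64 (mt-Nd4l). The standard errors of these mRNAs, at least 0.61, come mostly from the trend over all genes tested and not from each mRNA's own libraries. With them, limma could not detect a 2-fold difference between forskolin and cAMP. The absence of calls therefore does not show that the treatments acted alike.

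Scaled to the same mitochondrial total in every library, the members were compared with each other rather than with the whole library. Forskolin against control, 7 of 30 were called higher and 0 lower, where 67.5% of all genes tested were called, 67.4% higher and 0.109% lower, and the 7 were the tRNAs named above. On this scale mt-Nd3 changed by -1.12 ± 0.79 (limma adjusted p = 0.185) and mt-Co3 by -0.67 ± 0.70 (adjusted p = 0.368), and the median over the mRNAs was -0.10. cAMP against control, mt-Tl1 and mt-Tt were called higher (2.20 ± 0.78 and 2.42 ± 0.77, limma adjusted p = 0.0131 and 0.00636) and none lower, where 59.2% of all genes tested were called, 59.1% higher and 0.196% lower, and mt-Cytb changed by 0.51 ± 0.64 (adjusted p = 0.464). On this scale the calls with forskolin and with cAMP were lost when either forskolin library was left out, as were nearly all calls over all genes tested. Such a fit leaves 1 forskolin library and less to estimate the spread from, so the loss was not particular to the mitochondrial genes. Over the left-out libraries the fitted change with forskolin ran from 2.38 to 3.57 for mt-Tl1 and from 2.34 to 2.37 for mt-Tt. Forskolin against cAMP, limma again called 0 of 30 (0.0944% of all genes tested), with 1 at an unadjusted p under 0.05 (2.81% of all genes tested). With the copies summed into their genes, forskolin gave 7 calls as deposited (66.7% of all genes tested) and 7 with equal totals (73.5%), and cAMP gave 4 (65.6%) and 5 (64.9%), each of them a tRNA that was higher.

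The calls depended on the scaling. With median-of-ratios size factors, which set the median change over all genes tested at 0.18 for forskolin and 0.16 for cAMP in place of 1.69 and 1.66, the mRNAs had a median change of -2.82 with forskolin and -2.63 with cAMP. On that scale, forskolin against control, limma called 10 mitochondrial genes where it called 21.8% of all genes tested, 0 of them higher (14.4%) and 10 lower (7.35%), 5 of them mRNAs: mt-Atp8, mt-Co3, mt-Nd3, mt-Nd4l and mt-Nd6. cAMP against control, 13 were called (22.6% of all genes tested), with 1 higher (14.9%), mt-Tt (1.48 ± 0.48, limma adjusted p = 0.0358), and 12 lower (7.77%). mt-Nd3 had the smallest p of the mRNAs in both comparisons, with changes of -3.83 ± 0.62 with forskolin and -3.45 ± 0.62 with cAMP (limma adjusted p = 0.00048 and 0.00085). mt-Tc and mt-Ty, which were called higher with forskolin as deposited, had changes of -0.28 ± 0.44 and -0.12 ± 0.44 on this scale.

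**Figure D5:**
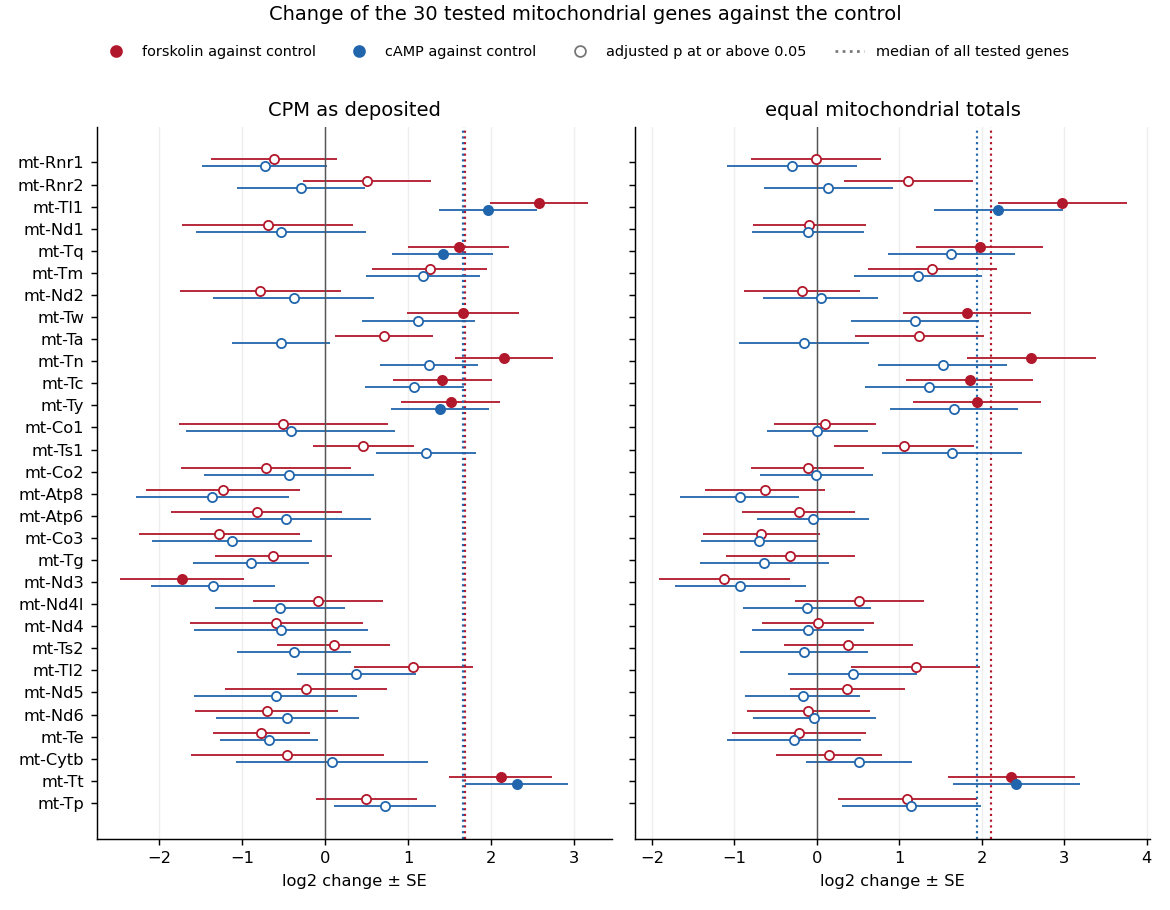
Fitted log2 change ± SE of the 30 tested mitochondrial genes with forskolin and with cAMP, each against the control, as deposited (left) and with mitochondrial totals made equal (right). Filled points passed the adjusted p of 0.05; dotted lines mark the median of all genes tested (1.69 and 1.66 on the left). The filled points are tRNAs except mt-Nd3 with forskolin on the left, and the mRNAs lie around a median of -0.71 with forskolin there.

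Most of the nuclear genes that transcribe, process and translate mitochondrial RNA were called higher with each treatment, as were most genes tested. As deposited, forskolin against control, 11 of 17 tested genes of mitochondrial transcription and DNA maintenance were called higher, 23 of 28 of RNA processing and stability, 16 of 20 translation factors, 50 of 76 mitochondrial ribosomal proteins, 8 of 9 biogenesis regulators and 63 of 75 nuclear subunits of oxidative phosphorylation, and none was lower, against 66.3% of all genes tested. The medians of these lists, from 1.48 to 2.39 on the log2 scale, lay on both sides of the median of all genes tested. With cAMP the counts were 12 of 17, 23 of 28, 18 of 20, 66 of 76, 7 of 9 and 74 of 75, against 65.1% of all genes tested. The medians with cAMP were 1.58 for transcription and from 1.97 to 2.76 for the other 5 lists, against 1.66 over all genes tested, with the nuclear subunits of oxidative phosphorylation highest. With median-of-ratios size factors most of these calls were lost: of the 75 nuclear subunits of oxidative phosphorylation, 4 were higher and 2 lower with forskolin (14.4% and 7.35% of all genes tested), and 19 higher and 0 lower with cAMP (14.9% and 7.77%). Of the ribosomal proteins, 7 were higher and 7 lower of 76 with forskolin, and 14 higher and 0 lower with cAMP.

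Polrmt, the mitochondrial RNA polymerase, had 15.4 and 17.6 CPM with forskolin, 16.4 and 6.38 CPM with cAMP and 1.44 CPM in the control. As deposited it rose by 2.84 ± 0.58 with forskolin and 2.22 ± 0.58 with cAMP (limma adjusted p = 1.63e-05 and 0.000652), and with median-of-ratios size factors its changes of 1.24 ± 0.44 and 0.63 ± 0.44 missed the threshold (adjusted p = 0.0519 and 0.309). Tfam, which packages mitochondrial DNA and starts its transcription, had 12.6 and 9.77 CPM with forskolin, 20.5 and 16.9 CPM with cAMP and 2.33 CPM in the control (limma adjusted p = 0.00355 and 8.39e-05 as deposited, 0.843 and 0.157 with median-of-ratios size factors). Tfb2m, its partner at the promoter, had 6.56 and 6.90 CPM with forskolin, 8.86 and 3.06 CPM with cAMP and 1.67 CPM in the control, and as deposited it was called with forskolin (limma adjusted p = 0.0201) and missed the threshold with cAMP (0.059).

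Lrpprc, which stabilises the mRNAs of the heavy strand, passed on both scales. It had 23.4 and 19.5 CPM with forskolin, 26.6 and 13.7 CPM with cAMP and 1.11 CPM in the control, a rise of 3.40 ± 0.58 with forskolin and 3.25 ± 0.58 with cAMP as deposited and of 1.88 ± 0.41 and 1.74 ± 0.41 with median-of-ratios size factors (limma adjusted p = 0.00396 and 0.00567 on the second scale). The smallest p-values of the lists other than oxidative phosphorylation were those of Mrpl28, Mrps15 and Mrps18a, proteins of the mitochondrial ribosome, with 9.77 to 28.6 CPM in the treated libraries and values in the control, 0.0405, 0.0405 and 0.0203 CPM, that lay under the floor of 3 reads.

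Between forskolin and cAMP, limma called 0 genes of these 6 lists as deposited (0.378% of all genes tested). At an unadjusted p under 0.05 (6.81% of all genes tested) there were 15 of 75 nuclear subunits of oxidative phosphorylation, 6 of 76 mitochondrial ribosomal proteins and 1 of 28 genes of RNA processing. Mrps11 had the smallest p among the last 2 of these lists (2.70 and 3.75 CPM with forskolin, 8.21 and 8.86 CPM with cAMP, limma adjusted p = 0.548). With median-of-ratios size factors, limma again called 0 genes of these lists, and 50 of 75 nuclear subunits and 16 of 76 ribosomal proteins had an unadjusted p under 0.05, where 11.2% of all genes tested did. As deposited, the nuclear subunits had a median difference of -0.78 on the log2 scale and the ribosomal proteins of -0.51, where all genes tested had 0.03 and the 13 mitochondrial mRNAs -0.16. Summed, the nuclear subunits took 1.03% and 1.01% of the nuclear values with forskolin, 1.84% and 1.51% with cAMP and 0.933% in the control. The sum of the nuclear subunits was thus lower in both forskolin libraries than in both cAMP libraries. The mitochondrial subunits of the same complexes had 1 of 13 members in that position as CPM, mt-Cytb, where 14.1% of all listed genes were.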

How the data were processed

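RNA-seq of total mouse dorsal epidermis was taken from 1 table of 59869 transcripts in 5 libraries. The deposited values are CPM, a unit read from the values; the authors' table holds a small offset in place of 0. Per the labels' protocols, dissected epidermis was freed with trypsin overnight, RNA was purified by Trizol and then RNeasy, and sequencing libraries came from a kit for stranded mRNA. The tools named are Partek, STAR and bcl2fastq 2.17, per the submitters' processing notes; settings, genome build, annotation, strand use and the treatment of reads with several matches are not given in the sources used here. Such treatment decides whether reads are divided between mitochondrial genes and identical nuclear copies or counted at both. Library columns matched sample descriptions by prefix and number, and 0 sample columns were left unused.

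Transcripts were summed per gene (21667). Depths assume that the offset stands for 0.0001 read; on that scale only 16 of the 20 mitochondrial values worth 0.5 to 20 reads were whole to within 0.1 read, too few to recover counts, so no count model was run. Floors cover counting error only. The test was limma 3.58.1 in R 4.3.3 with its trend option on log2(CPM + 1), 3 groups in 1 fit, 2-sided, at an adjusted p of 0.05. It was run as deposited (2 residual and 360.2 prior degrees of freedom) and with equal mitochondrial totals (2 residual and infinite prior degrees of freedom). It was also run on simulated data with known changes in a small part of the genes and no difference between whole libraries. The control here differs from that setting, so the simulation does not vouch for the comparisons with the control. Copies were found with BLAST+ 2.17.0 against GENCODE M21. Left out were 3 rows lacking a gene identifier, with up to 0.0679% of a library. The members and lists were chosen with earlier results of these data known. All mRNAs, rRNAs and tRNAs that passed the filter could be named, the 5 highest nuclear copies (2 more were added after their values were seen), and of the nuclear lists the 3 genes with the smallest p and Tfam, Polrmt, Tfb2m and Lrpprc. Alternatives were other pseudocounts, filters, scalings, moderation and libraries left out; summing the copies into their genes for the tests was chosen after seeing the data.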

Additional observations from a re-analysis of the deposited data

How the results depend on the processing

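The gap in mitochondrial share between treated libraries and the control ran from -22.8 to -17.8 percentage points when each treated library was left out, and was -28.1 with the copies added. The difference of forskolin from cAMP ran from -9.87 to 5.02 points, with a change of sign without the second forskolin (0.131) or the second cAMP library (5.02). Counts of mitochondrial calls as deposited were 8 for forskolin and 4 for cAMP against the control (9177 and 9025 of all 13764 genes tested). They became 2 and 1 with a filter of 10 CPM, which left 19 members in the test (6308 and 6285 of 7321 genes). With no filter they were 3 and 1 (6237 and 6326 of 21667 genes), and with a pseudocount of 5 they were 4 and 2 (7520 and 7472 of 13764 genes). For cAMP they became 7 with a pseudocount of 0.1 (9873 of 13764 genes), 13 with median-of-ratios size factors (3114) and 12 with scaling to nuclear values (3130). For forskolin both scalings gave 10 (3000 and 3110 of 13764 genes), of which at least 9 were lower. With equal mitochondrial totals the counts were 7 and 2 (9292 and 8155 of 13764 genes). They became 1 and 1 with the stricter filter (6449 and 5987 of 7321 genes) and 1 and 0 with no filter (4852 and 2473 of 21667 genes). A pseudocount of 5 gave 2 and 0 (6296 and 4059 of 13764 genes). For cAMP they became 7 with a pseudocount of 0.1 (9812 of 13764 genes) and 5 with the copies summed (8931 of 13757 genes). Leaving out a treated library gave 3 to 8 (forskolin) and 2 to 9 (cAMP) calls as deposited, and 0 to 11 and 0 to 10 with equal totals: 0 in both comparisons without either forskolin library, 11 and 10 without the second cAMP library. Forskolin against cAMP kept 0 calls as deposited and 0 to 1 with equal totals. Among genes called as deposited, the sign turned for mt-Tc with forskolin (-0.28 with median-of-ratios size factors, -0.17 with nuclear scaling), for mt-Ty with forskolin (-0.12 and -0.0196) and for mt-Ty with cAMP (-0.24 and -0.19). With either scaling 7 of 30 members with forskolin and 6 of 30 with cAMP turned sign, these included. The cause of these changes was not tested, apart from the fewer genes or samples of a filter or a left-out library. Replicate numbers gave no sign of pairing: deviations from the group means correlated at -0.045 over 13764 genes. With 2 libraries per treatment this cannot show that they were unpaired, and pairing is not stated in the sources used here. With the replicate number as a block 0 mitochondrial calls were made between forskolin and cAMP (55 over all genes, against 52). The lone control is taken to have the spread seen within the treatments.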
